A study of Mus musculus with 6 samples.

Results

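The probes described here carry names that begin with mouselincRNA, a numbered catalogue of mouse long intergenic non-coding RNA (lincRNA) regions on an array designed for the mm9 genome. They were taken as the non-control probes with that start to their name, tied to the deposited expression table by spot number. The array carried 691 of them, 343 whose name ends in a plus sign and 348 whose name ends in a minus sign, for 351 catalogue numbers, of which 340 have a probe of each sign. The table held 399 of the 691 among its 48436 rows, 198 plus and 201 minus probes of 286 catalogue numbers. Each probe has 1 spot on an array, and no spot was saturated. The sign is read here as the strand of the probe or of the transcript, although the files do not define it, and neither sequences, genome positions nor neighbouring genes of these probes were used here.

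The RNA came from the brains of male C57BL/6 mice aged 9 months, with 3 wild-type (WT) and 3 APP/PS1 samples that the labels call biological replicates. APP/PS1 is a transgenic line that carries a mutant amyloid precursor protein gene and a mutant presenilin 1 gene and develops amyloid plaques. The construct, its promoter, the brain region and whether the mice were littermates are not given in the sources used here. In tissue RNA, fewer cells of a type and less RNA per cell cannot be told apart.

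lincRNAs are transcribed outside protein-coding genes, and many are capped, spliced and polyadenylated like messenger RNAs. They are on the whole less abundant and more restricted to particular tissues than messenger RNAs, and brain is among the tissues with the richest sets. Some act on chromatin or on nearby genes, others in the cytoplasm, and for most no function is known, so that the probes below are identified by catalogue number only. Where an interval was found from chromatin marks its strand is not settled, which is a reason for an array to carry a probe to each strand.

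The 6 columns of the table have equal quartiles, and scanner signals were used for 5 of the 6 samples, all but WT replicate 3. WT replicates 2 and 3 were nearly identical, with a scatter of 0.0605 (log2) over bright probes against 0.0835 to 0.0998 for the other pairs of replicates. Of 15 probes printed many times on an array, 12 scattered by more than 0.0605 between spots, with a median of 0.0748. Over the 221 mouselincRNA probes detected on all arrays the scatter of this pair was 0.0839, against 0.147 to 0.220 for the other pairs. The pair was therefore averaged, and WT is counted as n = 2 and APP/PS1 as n = 3. The scanned WT arrays shared a slide, and the APP/PS1 arrays a second one, so that effects of slide and of genotype cannot be told apart in any comparison. With so few arrays every value has limited precision. Only 1 of 22 brain marker genes (B2m) had a probe that could be named, so the tissue label could not be checked against its defining markers.

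Most mouselincRNA probes were dim or undetected in brain. Of the 691, 221 (32.0%) were well above background on all 5 scanned arrays and 275 (39.8%) on none. By array, 270 (39.1%) and 262 (37.9%) were well above background in WT replicates 1 and 2, and 278 (40.2%), 349 (50.5%) and 362 (52.4%) in APP/PS1 replicates 1 to 3. APP/PS1 replicates 2 and 3 thus detected the most probes, and APP/PS1 replicate 1 was close to the WT arrays. Spots of the array's 20 negative control probes moved in the same order, with 8.75% and 7% of their 1200 spots well above background on the WT arrays and 13.0%, 25.1% and 27.6% on the APP/PS1 arrays. Their part in the difference was not tested. Over all 59994 spots that are not controls, the shares were 69.2% and 68.1% in WT and 70.3%, 77.0% and 78.6% in APP/PS1.

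**Figure D1:**
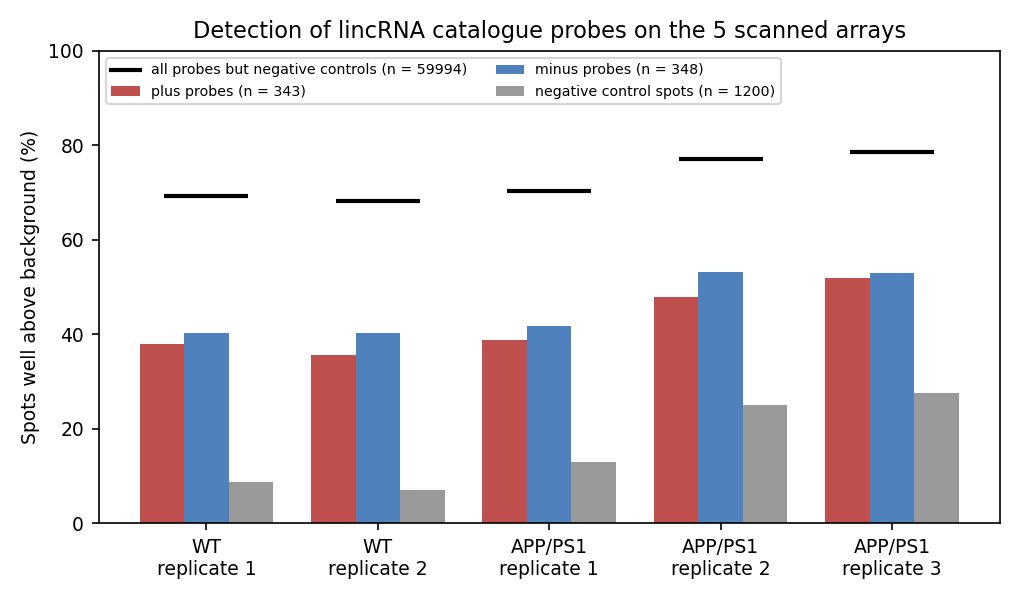
Share of spots well above background on each of the 5 scanned arrays (percent, y axis) for plus and minus mouselincRNA probes and negative control spots (bars) and for all probes that are not negative controls (black lines). The mouselincRNA bars lie between 35.6% and 53.2%, below the black lines at 68.1% to 78.6%, and the grey control bars are tallest in APP/PS1 replicates 2 and 3.

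The 292 probes outside the table gave little or no signal. Of these, 256 were well above background on no array, 36 on 1 array and none on more than 1. Inside the table, 221 of the 399 were well above background on all 5 arrays, 33 on 4, 41 on 3, 40 on 2, 45 on 1 and 19 on none. Other lincRNA content of the array was detected at different rates. Well above background on all 5 arrays were 53.8% of the probes named for mouse lincRNA exons and 30.2% of those named for human lincRNAs. The share was 32.0% here and 64.5% over all spots that are not controls. Probe design differs between these classes, so the rates describe the array and do not rank the transcripts.

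Minus probes were detected slightly more often than plus probes on each of the 5 arrays, in 40.2% and 40.2% against 37.9% and 35.6% in WT replicates 1 and 2, and in 41.7%, 53.2% and 52.9% against 38.8%, 47.8% and 51.9% in APP/PS1 replicates 1 to 3. Within a catalogue number the signs often differed. Of the 340 numbers with both probes, 35 had both well above background on all 5 arrays, 73 the plus probe only, 76 the minus probe only and 156 neither. In 87 numbers all 5 arrays detected 1 sign and none detected the other, 37 of them with the plus probe and 50 with the minus probe detected. For 52 numbers neither probe was detected on any array. The labels do not say whether the random-primed labelling kept the strand.

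The mean log2 value of the 399 probes over the 6 samples ran from 2.38 to 15.32 with a median of 5.15, beside a median of 7.05 for all rows. Levels of different probes depend on their sequence, so the brightest ones are given to show what was measured best. mouselincRNA1188- read 15.44, 15.49 and 15.38 in the WT samples and 15.18, 15.25 and 15.16 in the APP/PS1 samples, and differed by -0.24 ± 0.07 (SE) between APP/PS1 and WT (limma adjusted p 0.0546). Its 3 APP/PS1 values lay below its 3 WT values, yet it missed the threshold of 0.05. The values for mouselincRNA0077+ were 14.29, 14.43 and 14.42 in the WT samples and 14.21, 14.36 and 14.33 in the APP/PS1 samples, with overlapping groups and an adjusted p of 0.645. mouselincRNA1606- also overlapped between genotypes, at 13.62, 13.41 and 13.35 in the WT samples and 13.42, 13.28 and 13.47 in the APP/PS1 samples (adjusted p 0.490).

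Of the 5 brightest probes, 2 changed. mouselincRNA0161- rose, from 13.84, 13.79 and 13.66 in the WT samples to 14.56, 14.64 and 14.59 in the APP/PS1 samples. Its means were 13.78 ± 0.08 (SD, n = 2) in WT and 14.60 ± 0.04 (SD, n = 3) in APP/PS1, a 1.76-fold rise (log2 0.81 ± 0.07 (SE), limma adjusted p 0.00502), and the genotypes did not overlap. mouselincRNA0305- fell, from 13.59, 13.52 and 13.49 to 13.11, 13.10 and 13.14, a log2 change of -0.43 ± 0.07 (SE) with an adjusted p of 0.0140. That call was lost without WT replicate 1 (adjusted p 0.0680) and without APP/PS1 replicate 2 (adjusted p 0.0533).

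Across the table, 72 of the 399 probes (18.0%) passed the limma test at an adjusted p of 0.05, beside 30.1% of all 48436 rows. Of these, 22 rose (14.2% of all rows rose) and 50 fell (15.9% of all rows fell), while 327 did not pass. Plus and minus probes were called at like rates, with 11 rises and 23 falls among 198 plus probes and 11 rises and 27 falls among 201 minus probes. In all 72 the 3 APP/PS1 values lay outside the range of the 3 WT values. Such separation was common: 176 of the 399 probes had it (44.1%, beside 56.3% of all rows), 53 with APP/PS1 higher (25.8% of all rows) and 123 with APP/PS1 lower (30.6% of all rows). A change of 2-fold or more was called for 8 rises (3.66% of all rows) and 10 falls (1.97% of all rows). The count of 72 depended on single samples: it was 32 without WT replicate 1 (11.8% of all rows), 44 without APP/PS1 replicate 2 (15.3% of all rows) and 36 without APP/PS1 replicate 3 (15.8% of all rows). In all, 18 calls passed in every fit with 1 sample left out (9.01% of all rows), 3 of them rises (4.91% of all rows) and 15 falls (4.1% of all rows).

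**Figure D2:**
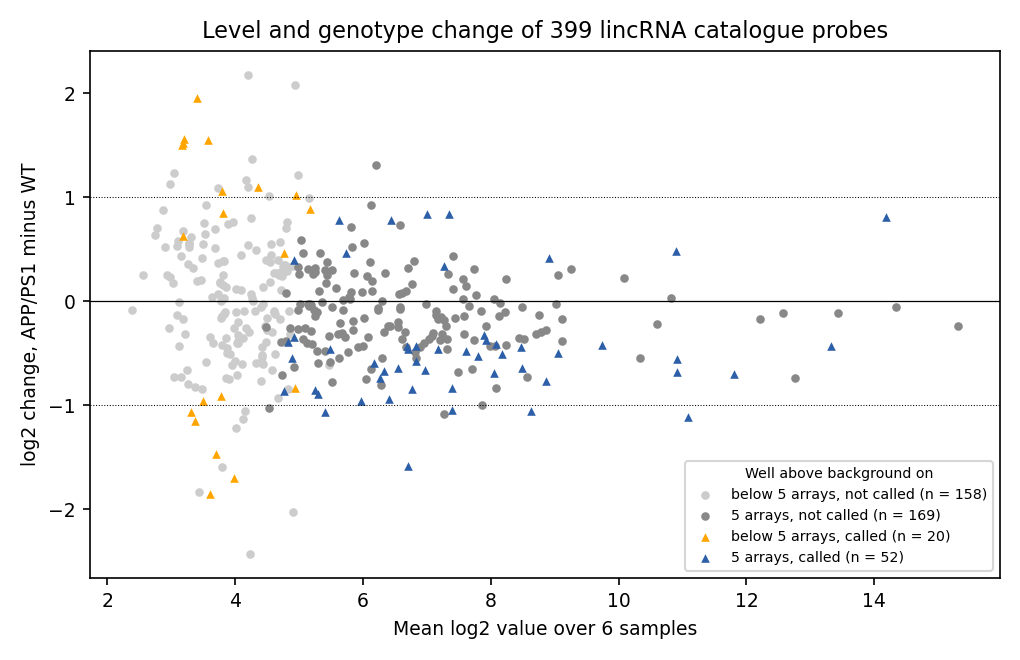
Mean log2 value over the 6 samples (x axis) against the log2 change, APP/PS1 minus WT (y axis), for the 399 mouselincRNA probes in the table, with triangles for probes that passed the test and dotted lines at 2-fold. The called rises beyond 2-fold lie at the dim left end among probes detected on fewer than 5 arrays, while 5 of the blue triangles, detected on all 5 arrays, lie below the lower dotted line.

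More of the called falls than of the called rises were well measured. Among the 221 probes detected on all 5 arrays, 52 passed the test (23.5%, beside 33.6% of all such rows): 10 rose (15.1% of all such rows) and 42 fell (18.5% of all such rows). None of the 10 rises reached 2-fold (2.76% of all such rows did) and 5 of the 42 falls did (1.57% of all such rows). These rises ran from 0.34 to 0.84 with a median of 0.63 on the log2 scale, and these falls from -1.59 to -0.32 with a median of -0.62. Of all 22 rises, 10 were not well above background on any WT array. Of the 50 falls, 7 were not well above background on any APP/PS1 array. These shares were not counted over all called rows, and the APP/PS1 arrays detected more spots of all kinds, as given above.

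The largest fall among well measured probes was that of mouselincRNA0750-. Its values were 7.46, 7.54 and 7.53 in the WT samples and 6.06, 5.69 and 5.98 in the APP/PS1 samples. The means were 7.50 ± 0.05 (SD, n = 2) in WT and 5.91 ± 0.19 (SD, n = 3) in APP/PS1, a 3.01-fold lower signal in APP/PS1 (log2 -1.59 ± 0.13 (SE), limma adjusted p 0.00449), and every APP/PS1 value was more than 1 log2 unit below every WT value. mouselincRNA0499+, a much brighter probe, read 11.58, 11.70 and 11.68 in the WT samples and 10.46, 10.60 and 10.49 in the APP/PS1 samples. It fell 2.17-fold (log2 -1.12 ± 0.08 (SE), adjusted p 0.00344) with the 6 values in 2 tight groups.

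mouselincRNA0052- was among the most even within genotypes, at 9.12, 9.18 and 9.19 in the WT samples and 8.09, 8.12 and 8.07 in the APP/PS1 samples. The fall was 2.08-fold (log2 -1.06 ± 0.06 (SE), adjusted p 0.00255). mouselincRNA0570- behaved alike, at 7.93, 7.93 and 7.89 in the WT samples and 6.83, 6.91 and 6.89 in the APP/PS1 samples, a 2.06-fold fall (log2 -1.04 ± 0.06 (SE), adjusted p 0.00265). For both probes the gap between the genotypes exceeded the range within either. mouselincRNA0362+ was dimmer and looser, at 5.81, 6.03 and 6.03 in the WT samples and 5.01, 4.89 and 4.66 in the APP/PS1 samples, and fell 2.09-fold (log2 -1.07 ± 0.14 (SE), adjusted p 0.0102). Under background correction by normexp, which models each spot's signal and background together, its change was -0.71 with an adjusted p of 0.0634.

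Further falls of under 2-fold also passed with any 1 sample left out. mouselincRNA0772- and mouselincRNA0771-, neighbouring catalogue numbers, both fell on the minus sign. The first read 12.13, 12.20 and 12.17 in the WT samples and 11.38, 11.53 and 11.47 in the APP/PS1 samples (log2 change -0.70 ± 0.08 (SE)). The second read 8.43, 8.34 and 8.42 in the WT samples and 7.72, 7.78 and 7.63 in the APP/PS1 samples (log2 change -0.69 ± 0.08 (SE)). mouselincRNA0453+ fell from 11.28, 11.23 and 11.24 to 10.61, 10.60 and 10.53, and mouselincRNA0970- from 11.15, 11.20 and 11.23 to 10.60, 10.62 and 10.66, with log2 changes of -0.68 and -0.56. In mouselincRNA0309- the values were 9.19, 9.30 and 9.26 in the WT samples and 8.45, 8.37 and 8.58 in the APP/PS1 samples, and in mouselincRNA0522+ they were 8.84, 8.82 and 8.74 in the WT samples and 8.18, 8.09 and 8.22 in the APP/PS1 samples. Their log2 changes were -0.77 and -0.65. Between levels of 4 and 8, the probes mouselincRNA0797+ (-0.96), mouselincRNA0861- (-0.94) and mouselincRNA0002- (-0.89) fell as well, each with all 3 APP/PS1 values below all 3 WT values.

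Some rises were well measured too. Beside mouselincRNA0161-, the probe mouselincRNA1235- rose, at 7.12, 6.71 and 6.84 in the WT samples and 7.84, 7.77 and 7.76 in the APP/PS1 samples. Its change was 0.84 ± 0.12 (SE) on the log2 scale, 1.79-fold (limma adjusted p 0.0127), and WT replicate 1 was the highest of the WT values. mouselincRNA0538+ rose too, from 10.57, 10.74 and 10.71 to 11.11, 11.02 and 11.27 (0.49 ± 0.11 (SE), adjusted p 0.0332). That call was lost without WT replicate 1 or any 1 of the 3 APP/PS1 samples (adjusted p 0.0598 to 0.137) and after median centring of the scanner signals (adjusted p 0.0530). These 3 were the rises, of 20 tested in the scanner signals, that also passed under normexp, where their changes were 0.95, 0.41 and 0.63. Normexp turned the sign of 13 of the 20 rises and of none of the 44 falls tested, and kept 28 of those falls. It also shifted the scale, with a median change of -0.22 over all probes tested and -0.41 over the mouselincRNA probes. How often signs turned over all probes was not counted. Normexp adds an offset of 50 to every spot, while the median processed signal of the mouselincRNA probes was 10.7 to 17.5 by array. The part of this offset in the turned signs, and any other cause of the difference between backgrounds, was not tested.

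A set of 15 probes passed in every fit with 1 sample left out and under all 4 treatments of the scanner signals (6.59% of all rows did): 13 falls (mouselincRNA0002-, mouselincRNA0052-, mouselincRNA0309-, mouselincRNA0453+, mouselincRNA0499+, mouselincRNA0522+, mouselincRNA0570-, mouselincRNA0750-, mouselincRNA0771-, mouselincRNA0772-, mouselincRNA0797+, mouselincRNA0861- and mouselincRNA0970-) and 2 rises (mouselincRNA0161- and mouselincRNA1235-). This list was drawn up after the values were seen.

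**Figure D3:**
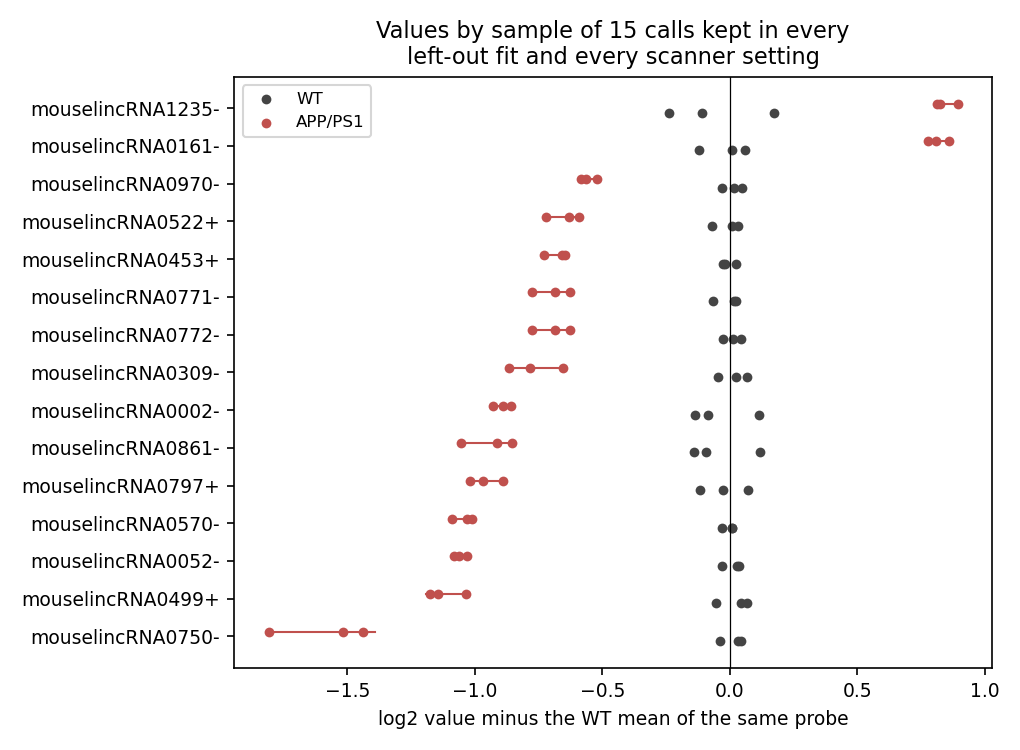
Each of the 6 values of the 15 probes, as log2 value minus the WT mean of that probe (x axis), 1 probe per line, WT in grey and APP/PS1 in red with a bar of ± 1 SD around the APP/PS1 mean. In all 15 the red points lie clear of the grey points, from mouselincRNA0750- at -1.59 to mouselincRNA1235- at 0.84.

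The largest rises by size came from probes at or near the lowest value of the table. mouselincRNA0238- read 2.41, 2.44 and 2.43 in the WT samples and 4.61, 4.64 and 3.89 in the APP/PS1 samples, a fitted log2 change of 1.96 ± 0.26 (SE) with an adjusted p of 0.0107. All 3 APP/PS1 arrays and neither WT array measured it well above background. With the WT level set to the lowest signal that counted as above background, the scanner signals give at least a 1.09-fold rise. The call was lost without WT replicate 1 (adjusted p 0.0593), and under normexp the change was -0.25. mouselincRNA0327+, mouselincRNA1564- and mouselincRNA0344+ share those WT values of 2.41, 2.44 and 2.43, the table's floor. mouselincRNA0327+ read 3.70, 4.44 and 3.80 in the APP/PS1 samples (log2 change 1.56). mouselincRNA1564- read 3.86, 4.42 and 3.55 there (1.52) and was well above background on 1 array. mouselincRNA0344+ read 3.81, 4.03 and 3.94 there, and the signals, well above background on 2 APP/PS1 arrays each, allow no fold above 1 for mouselincRNA0327+ and mouselincRNA0344+. mouselincRNA0344+ (log2 change 1.50) was called in every fit with 1 sample left out, but with its WT values at the floor the fit holds no WT spread of its own.

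mouselincRNA0365- (1.55, at least 1.09-fold), mouselincRNA0953+ (1.10, at least 1.50-fold), mouselincRNA0155+ (1.06) and mouselincRNA0735- (0.85) are given by log2 change and, where all 3 APP/PS1 arrays detected the probe, by bound. Of the 3 APP/PS1 arrays, 2 measured mouselincRNA0155+ and mouselincRNA0735- well above background. mouselincRNA0935+ read 4.55, 4.61 and 5.08 in the WT samples and 5.37, 5.69 and 5.71 in the APP/PS1 samples, a 1.86-fold rise in the table, and was well above background on 3 APP/PS1 arrays and no WT array. mouselincRNA0491- was detected on 1 WT array and all 3 APP/PS1 arrays, at 4.46, 4.65 and 4.18 in the WT samples and 5.15, 5.73 and 5.51 in the APP/PS1 samples, 2.04-fold. Every call given in this paragraph was lost without APP/PS1 replicate 3 (limma adjusted p 0.0510 to 0.0958). Of these 10 largest rises, 9 were tested under normexp, and all 9 had negative changes there that did not pass. These ran from -0.37 to -0.18. The median change under normexp was -0.22 over all probes tested and -0.41 over the mouselincRNA probes.

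Some of the largest falls were dim too. mouselincRNA0052+ read 4.74, 4.41 and 4.35 in the WT samples and 2.37, 3.28 and 2.45 in the APP/PS1 samples, with a fitted change of -1.86 ± 0.33 (SE). In the scanner signals 1 WT array and no APP/PS1 array measured it well above background, so no minimum fold is given. The call did not survive leaving out WT replicate 1, APP/PS1 replicate 1 or APP/PS1 replicate 3. mouselincRNA0963+ was detected on both WT arrays and no APP/PS1 array, at 4.77, 4.87 and 4.89 in the WT samples and 3.46, 2.66 and 3.25 in the APP/PS1 samples, at least 1.63-fold lower. mouselincRNA1555+ fell as well (log2 -1.47), with 1 WT array and no APP/PS1 array well above background, and no minimum is given for it. The table also called mouselincRNA0464- (-1.15) and mouselincRNA0582- (-1.07), which were well above background on no array, so that no fold is given. The calls of mouselincRNA1555+ and mouselincRNA0582- were lost without APP/PS1 replicate 1 and without APP/PS1 replicate 3.

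Detection on all scanned arrays of 1 genotype and on none of the other was found for 20 probes. There were 18 (2.60% of the 691) well above background on all 3 APP/PS1 arrays and on neither WT array, beside 2.45% of all array probes. The opposite pattern held for 2 (0.289%), mouselincRNA0963+ and mouselincRNA1170- (at least 1.43-fold lower, adjusted p 0.0704), beside 0.0973% of all array probes. The negative control spots given above were detected more often on the APP/PS1 arrays as well. Of the 18, the table called 4: mouselincRNA0238-, mouselincRNA0365-, mouselincRNA0935+ and mouselincRNA0953+. In the scanner signals a bound above 1 could be computed for 17, but for 7 of these it exceeded the fold of the table's own means, so no minimum is given for them. The 7 were mouselincRNA0327-, mouselincRNA0664-, mouselincRNA0792+, mouselincRNA0935+, mouselincRNA1179-, mouselincRNA1453+ and mouselincRNA1454+. A bound compares means and does not allow for the spread between samples, so for a probe that was not called it is no evidence of a change. The values of mouselincRNA0327- were 4.38, 4.50 and 4.28 in the WT samples and 6.69, 5.03 and 5.07 in the APP/PS1 samples (adjusted p 0.180). For mouselincRNA0792+ the table means ran slightly the other way, with a difference of -0.02 (adjusted p 0.926). mouselincRNA1171+ read 2.41, 3.69 and 3.54 in the WT samples and 4.53, 6.69 and 4.36 in the APP/PS1 samples (bound of 1.85-fold between means, not called, adjusted p 0.127). The highest value is that of APP/PS1 replicate 2, more than 2 log2 units above the other APP/PS1 samples.

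Among the 18 were both probes of mouselincRNA0941, with bounds of 1.42-fold for the plus and 1.47-fold for the minus probe, neither of them called in the table. The others with a bound were mouselincRNA1224+ (at least 1.69-fold), mouselincRNA0963- (at least 1.39-fold), mouselincRNA0165- (at least 1.25-fold) and mouselincRNA1667- (at least 1.12-fold). None of these passed in the table. For mouselincRNA1341- the signals give no fold above 1.

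The probes of the 2 signs were compared within catalogue numbers. Of the 113 numbers with both probes in the table, 36 had exactly 1 called (39.1% of all 1454 such pairs on the array), 2 had both (7.57% of all pairs) and 75 neither. No number had both called in opposite directions (2.34% of all pairs). The log2 changes had the same sign in 65 of the 113 (53.5% of all pairs). Both probes were called as falls in mouselincRNA0052 (-1.86 for plus, -1.06 for minus) and in mouselincRNA0797 (-0.96 and -0.32). The call of mouselincRNA0052+, which was detected on 1 array, was lost without APP/PS1 replicate 1 and without APP/PS1 replicate 3. That of mouselincRNA0797- was lost without any 1 of the APP/PS1 samples (limma adjusted p 0.0951 to 0.113).

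A call on 1 sign only does not show that the signs differ, so the difference between their changes was tested in its own limma fit over all 1454 pairs. It passed for 5 of the 113 (6.95% of all pairs passed). In mouselincRNA0750, the minus probe fell by 1.59 while the plus probe read 5.39, 4.79 and 5.05 in the WT samples and 5.39, 5.63 and 5.29 in the APP/PS1 samples, a difference of 0.28 (adjusted p 0.307). The difference of plus minus minus was 1.87 ± 0.31 (SE) with an adjusted p of 0.0370, and this was the only one of the 5 with both probes detected on all arrays. In mouselincRNA0963 the plus probe changed by -1.70 and the minus probe, which missed the threshold in the table (adjusted p 0.0534), differed by 1.10. The difference of plus minus minus was -2.80 ± 0.26 (SE) (adjusted p 0.0137). The plus probe was detected only on WT arrays and the minus probe only on APP/PS1 arrays, where its values were 5.30, 4.47 and 4.47 against 3.62, 3.44 and 3.92 in WT.

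mouselincRNA0344 differed by 2.05 ± 0.18 (SE) (adjusted p 0.0127), the plus probe from the floor as above and the bright minus probe at 10.53, 10.56 and 10.75 in the WT samples and 9.82, 10.25 and 10.07 in the APP/PS1 samples. mouselincRNA0238 (-1.77 ± 0.32 (SE), adjusted p 0.0415) and mouselincRNA0464 (0.98 ± 0.18 (SE), adjusted p 0.0445) rest on the dim minus probes already described. The 5 calls depended on single samples. None of the 113 passed in limma without WT replicate 1 (0% of all pairs passed), APP/PS1 replicate 1 (0.481%), APP/PS1 replicate 2 (0.275%) or APP/PS1 replicate 3 (0.138%), when 16 to 28 of the 113 had an unadjusted p under 0.05. With 1 APP/PS1 sample left out, such an unadjusted p was found for 16 to 28 of the 113, beside 324 to 380 of all 1454 pairs. Leaving out WT replicate 2 or WT replicate 3 left 4 calls each (5.71% and 6.81% of all pairs). When only pairs with both probes detected on all 5 arrays were tested, 6 of 35 passed (28.1% of all such pairs): mouselincRNA0002, mouselincRNA0013, mouselincRNA0293, mouselincRNA0413, mouselincRNA0750 and mouselincRNA0797.

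**Figure D4:**
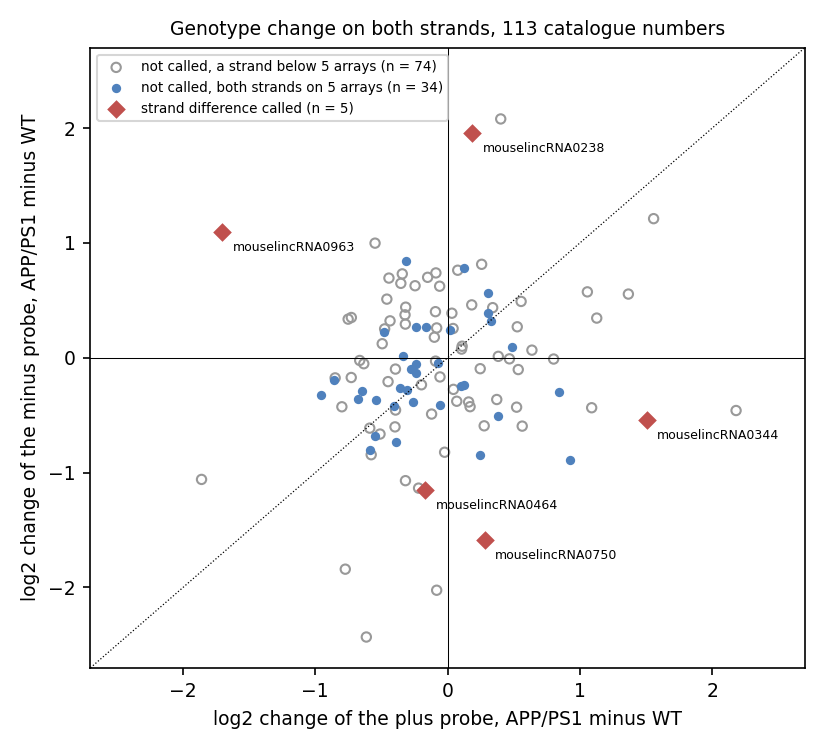
Log2 change, APP/PS1 minus WT, of the plus probe (x axis) against that of the minus probe (y axis) for the 113 catalogue numbers with both in the table, with red diamonds for the 5 called strand differences and a dotted line of equal change. mouselincRNA0963 and mouselincRNA0344 lie in quadrants of opposite sign, and mouselincRNA0750 lies far below the dotted line with its plus probe at 0.28.

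Values follow for the 5 numbers whose dimmer probe was brightest. In mouselincRNA0522, the first of them, the changes were -0.65 for plus, which passed, and -0.29 for minus, which did not (adjusted p 0.107). mouselincRNA0706 differed by -0.28 and -0.10 between genotypes and mouselincRNA1512 by -0.23 and -0.14, with no probe called. In mouselincRNA0077 the minus probe fell (-0.41 ± 0.08 (SE), adjusted p 0.0269) and the plus probe differed by -0.06. The call of mouselincRNA0077- was lost without any 1 of the APP/PS1 samples (adjusted p 0.0749 to 0.0793) and under normexp (adjusted p 0.0611). mouselincRNA1235 rose on the minus probe only, the plus probe having differed by -0.31, but the difference between them, -1.16 ± 0.38 (SE), did not pass (adjusted p 0.129).

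Spread within genotypes varied widely between probes. For the 221 probes detected on all 5 arrays, the pooled SD within genotypes ran from 0.029 to 0.94 with a median of 0.16 (log2). The most variable was mouselincRNA0288-, at 5.37, 7.30 and 7.44 in the WT samples and 6.81, 5.79 and 6.71 in the APP/PS1 samples, with WT replicate 1 near 2 log2 units below the other WT samples and APP/PS1 replicate 2 lowest in its group. mouselincRNA0665- was even in WT, at 7.61, 7.47 and 7.53, and spread in APP/PS1, at 6.02, 7.18 and 8.10. In mouselincRNA1633+ a single sample stood apart, at 6.52, 6.39 and 6.31 in the WT samples and 4.65, 6.23 and 6.17 in the APP/PS1 samples. The bright probe mouselincRNA0158- was lowest in replicate 1 of both genotypes, at 12.51, 13.51 and 13.62 in the WT samples and 11.52, 12.62 and 12.76 in the APP/PS1 samples. mouselincRNA1631+ had the largest upward difference of the 221, 1.31 ± 0.46 (SE), from 4.74, 6.15 and 6.12 to 6.46, 7.06 and 6.72, and did not pass (adjusted p 0.0984), with WT replicate 1 more than 1 log2 unit below the other WT samples.

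The fit of scanner signals, scaled to each array's 75th percentile, tested 335 of the 691 probes. It called 75 (32.6% of all 45560 probes tested), 35 rises (18.1%) and 40 falls (14.5%). Of the 72 table calls 64 were tested there and 57 were called in the same direction. The scanned arrays are also in the table, which followed their signals closely, so this overlap is not independent support. Its share over all rows was not counted. Median centring called 77 (30.4% of all probes tested), quantile normalization 72 (32.8%) and normexp 52 (17.3%). The split between rises and falls moved with the treatment of the values: rises made 30.6% of the calls in the table and 46.7% in the scanner signals, 31.2% after median centring, 26.4% after quantile normalization and 5.77% after normexp. Over all probes these shares were 47.1%, 55.4%, 43.4%, 47.2% and 42.8%. Table and scanner fits also differ in their samples and probes, and normexp in the background correction.

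The median change of the mouselincRNA probes lay below that of all probes under each of these treatments. It was -0.13 in the table against -0.03 for all rows, -0.24 against -0.05 for those detected on all 5 arrays, and -0.03 against 0.04 in the scanner signals. Median centring gave -0.12 against -0.05, quantile normalization -0.14 against -0.03 and normexp -0.41 against -0.22. The gap between the medians ran from -0.19 to -0.07. Probes named for mouse lincRNA exons and for human lincRNAs had table medians of -0.12 and -0.13, close to the -0.13 of the mouselincRNA probes, with 781 of 2601 (30.0%) and 125 of 647 (19.3%) called. These are descriptions of the lists and no test was made of them.

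**Figure D5:**
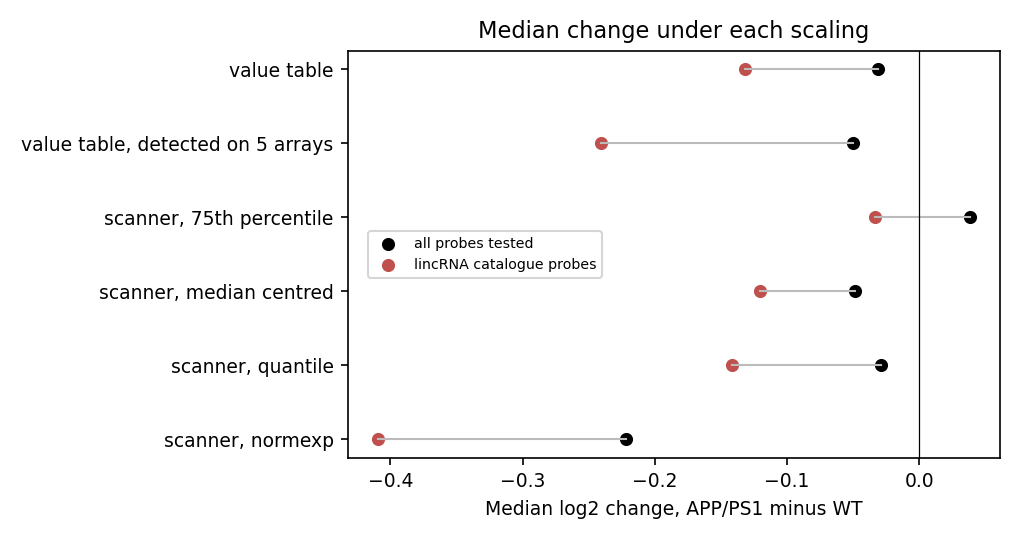
Median log2 change, APP/PS1 minus WT (x axis), of mouselincRNA probes (red) and of all probes tested (black) under 6 treatments of the values (y axis). The red point lies left of the black one on every line, and both lie furthest left after normexp, at -0.41 and -0.22.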

How the data were processed

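Each sample was hybridised to 1 Agilent array in 1 colour (Cy3). Per the labels' protocols, Trizol extraction was followed by depletion of ribosomal RNA and random-primed synthesis of labelled cRNA. Spot intensity values and detection flags come from Agilent Feature Extraction 11.0.1.1, per the submitters' processing notes. The deposited table gives log2 values whose normalization and filter are not given in the sources used here. Its columns share a median of 7.06 and followed the log2 processed signal with correlations of at least 0.99965.

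Genotypes were compared two-sided with the lmFit and eBayes functions of limma 3.58.1 (R 4.3.3). P-values were adjusted by Benjamini-Hochberg over all 48436 rows with a threshold of 0.05, and the fit was checked on simulated data. WT replicates 2 and 3 were averaged, because their scatter over bright probes was below the median scatter of repeated spots of 1 probe. The scanner fit used log2 processed signal minus each array's 75th percentile, for probes well above background on at least 2 of 5 arrays. For a probe that 1 genotype measured on none of its arrays and the other on all, "at least" marks a bound. It sets the brighter mean against the dim arrays, each taken at its lowest signal called well above background or at the probe's signal, whichever is higher. Normexp used an offset of 50.

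Probes were named by rule: per direction the 10 largest called changes with separate groups, the 5 brightest, those detected on all arrays of 1 genotype and none of the other, and 10 strand pairs chosen by p or by level. Probes kept in all fits, or with the widest spread, were named after their values were seen. The probes, lists and rules were chosen with earlier results of these data known. Samples sharing a replicate number did not deviate together (correlations 0.0589, -0.0948 and 0.0111), so the numbers do not pair them. Other scalings, filters, a replicate block and each sample left out were tried as alternatives.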

Additional observations from a re-analysis of the deposited data

How the results depend on the processing

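The count of 72 called probes in the table became 117 with WT replicates 2 and 3 kept apart (41.8% of all rows), 97 with the replicate number as a block as well (31.8%), 29 when 2-fold and an unadjusted p under 0.05 were asked (6.66%), and 46 when rows above the table's median level were tested (56.6%), which held 89 of the probes. With 1 sample left out it ran from 32 to 74. The scanner count of 75 became 24 at the unadjusted p with 2-fold (7.82% of all probes tested) and ran from 36 to 61 with 1 APP/PS1 sample left out. It was 0 in limma with the replicate block (0% of all probes tested), where 1 residual degree of freedom is left. There 98 of the 335 mouselincRNA probes had an unadjusted p under 0.05, beside 15310 of all 45560 probes tested. The 5 strand differences became 16 with WT replicates 2 and 3 apart (19.9% of all pairs), 10 with the replicate block as well (9.28%), and 0 to 4 with 1 sample left out. The 221 probes detected on all arrays became 380 under the flag for positive and significant signal. Other alternatives kept these counts within 1.5 times, and no named probe reversed its table call in any alternative to the table fit. Normexp, an alternative to the scanner fit, is not among these, and under it 13 of the 20 table rises tested had changes of the opposite sign. Many of the 53 probes named by rule were not called in the table and had no call to lose. Among the called ones, leaving out WT replicate 1 lost 12 calls and leaving out APP/PS1 replicate 3 lost 10. Slide as a block was not run, because each slide held 1 genotype. Low signal is a limit: 10 of the 22 rises had no WT array well above background, and 7 of the 50 falls no APP/PS1 array. The same shares over all called rows were not counted.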
